A study of Mus musculus with 9 samples.

Results

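Chemokines are small secreted proteins that steer leukocytes and other cells along a concentration gradient by binding G protein-coupled receptors on the cell surface. The family is divided by the spacing of its first cysteines into CC, CXC, CX3C and XC ligands, and each class has its own receptors. Homeostatic ligands such as Cxcl12 are made by stroma and epithelium at rest, inflammatory ligands such as Ccl2 are induced by cytokines, and atypical receptors take up ligand without the usual G protein signal. In tumors these genes are expressed by cancer cells, fibroblasts, endothelium and infiltrating myeloid and lymphoid cells alike.

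The chemokine system was taken here as every counted gene with a mouse symbol that begins with Ccl, Cxcl, Cx3cl, Xcl, Ccr, Cxcr, Cx3cr, Xcr or Ackr directly followed by a digit, with 3 annotated pseudogenes left out (Cxcl11, Ccl19-ps1 and Ccl19-ps3). This gave 60 genes of the 35275 in the table, made up of 37 ligands and 23 receptors. RNA was sequenced from 9 whole mammary gland tumors, 3 per group. All tumors arose in Brca1Co/Co;MMTV-Cre;p53+/- mice, in which MMTV-Cre deletes conditional Brca1 alleles in mammary epithelium and p53 is heterozygous in every cell, so the controls carried the same alleles as the treated animals. The groups received saline, free Talazoparib by intravenous injection (i.v. TLZ) or Talazoparib in liposomal nanoparticles, also intravenous (NanoTLZ). No sequenced tumor received empty nanoparticles, so drug and carrier cannot be told apart where NanoTLZ tumors enter a comparison. Talazoparib inhibits PARP and was given at 0.33 mg/kg in either form, 5 doses at 3 a week, starting when a tumor measured 4 to 5 mm. Mouse ages are not stated in the labels, and nothing in them ties a tumor to a litter or batch. Each group held 3 mice. The p-values set a group difference against the spread between tumors within groups, which was estimated over all groups with information shared across genes.

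Total counts ran from 17538380 to 21194980 per tumor, and levels are given as CPM, the count scaled by library size and edgeR's TMM factor, on which 3 counts were worth 0.138 to 0.172 CPM. The third saline tumor (saline 3) stood apart: its mean Spearman correlation with the other 8 tumors over tested genes was 0.867, against 0.916 to 0.947 for the rest. Epithelial markers were present in all tumors (Epcam, Cdh1 and 4 keratins summed to 3413 to 7673 CPM). Among them Krt5 set saline 3 apart, at 1849 CPM, against 72.9 CPM in i.v. TLZ 3 and 2.30 to 11.7 CPM in the remaining tumors. Skeletal muscle markers summed to 20.03, 158 and 619 CPM in saline and to at most 3.90 CPM in any treated tumor. Brca1 itself was counted at 9.46 to 42.7 CPM, but a count over the whole gene does not show whether the conditional part was deleted. Trp53 was at 107.6 CPM in NanoTLZ 1 and at 23.4 to 45.6 CPM in the other tumors. In bulk tissue, fewer cells of a type and less RNA per cell cannot be told apart.

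Of the 60 genes, 45 had enough counts to be tested and 15 did not. The untested genes were Cxcl15, Ackr1, Ccl19, Ccl28, Ccr1l1, Ccl21b, Ccl27b, Ccl24, Ccl1, Xcl1, Ccl26, Ccr9, Ccr6, Ccr8 and Ccr4. Among these, Ccl26, Ccl21b and Ccl27b had no count in any tumor, which allows a level of up to 0.138 to 0.172 CPM. Ccr4, the receptor of Ccl17 and Ccl22, and Ccr6, the receptor of Ccl20, were untested although those ligands were measured, with 0 to 0.273 CPM and 0 to 0.216 CPM. Ccl21a and Ccl21b, Ccl27a and Ccl27b, and Ccl19 and its pseudogenes are near-identical copies, so how their reads were split is uncertain.

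Per kilobase of exon, the ligand with the highest mean level over the 9 tumors was Cxcl14 at 159 CPM per kb, followed by Cxcl5 (46.6), Ccl8 (44.9), Cxcl16 (44.0) and Cx3cl1 (37.2). Cxcl12 lay lower, at 1.76 CPM per kb, between Ccl4 and Ccl25. That place depends on the division by all annotated exon bases, 8176 for Cxcl12 and 960 for Ccl5. In plain CPM the mean was 14.4 for Cxcl12 and 12.3 for Ccl5. The receptors were led by Cx3cr1 at 23.0 CPM per kb, the fractalkine receptor carried by monocytes and macrophages, then Cxcr4 (16.0), Ackr3 (12.7), Ccr1 (9.83) and Ccr2 (4.48). The place of Cxcr4 rests on saline 3 at 106 CPM, since Ackr3 had the higher level per kb with i.v. TLZ (12.8 against 11.7) and with NanoTLZ (17.5 against 10.2). The order of neighbours such as Cxcl5, Ccl8 and Cxcl16 lies within the spread between tumors, since Cxcl5 alone ran from 0.275 to 261 CPM.

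**Figure D1:**
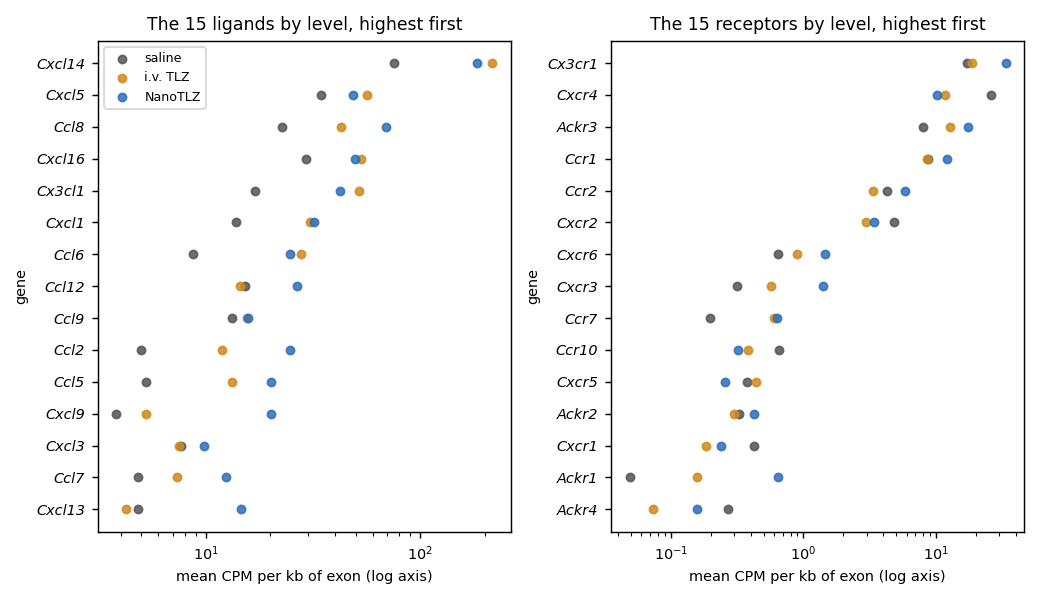
Mean level per kilobase of exon (CPM per kb, log axis) in each group of 3 tumors for 15 ligands and 15 receptors ordered by their level over all 9 tumors; each point is a group mean and no error is drawn. Cxcl14 led the ligands and Cx3cr1 the receptors by the mean over the 9 tumors, and for Cxcr4 the saline mean, which holds 1 tumor at 106 CPM, lay to the right of both treated means.

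No chemokine or receptor gene passed an adjusted p of 0.05 in edgeR's quasi-likelihood test in any of 4 comparisons: each treatment against saline, both treatments averaged against saline, and NanoTLZ against i.v. TLZ. Over all 15821 tested genes the share called was itself near 0 (0% higher and 0% lower for i.v. TLZ, 0.00632% higher and 0% lower for NanoTLZ, 0% and 0% between the treatments, and 0.00632% higher and 0.0126% lower for both treatments). At an unadjusted p under 0.05 by edgeR, 8 of the 45 tested genes were higher and 0 lower with i.v. TLZ, where 4.91% of all genes were higher and 5.47% lower. With NanoTLZ 11 of 45 were higher and 0 lower, against 3.51% and 5.49% of all genes. For both treatments 10 were higher and 1 was lower, against 4.8% and 8.29%. Between NanoTLZ and i.v. TLZ 0 of 45 passed in either direction, against 0.449% and 1.23%. DESeq2 on all 9 tumors tested 56 genes of the system and called 1 with i.v. TLZ (Ccl17), 2 with NanoTLZ (Ccl2 and Cxcl12), 4 for both treatments (those 3 and Ccl22) and 0 between the treatments, all higher, and limma-voom called 0. Of the 25112 genes DESeq2 tested, it called 0.402% higher and 0.374% lower with i.v. TLZ, 0.215% and 0.183% with NanoTLZ, 0.514% and 0.589% for both treatments, and 0.00398% and 0.00796% between the treatments. The comparisons with saline use the same 3 saline tumors and are not independent of each other. Ccl22, Ccl17, Ccl20 and Ccr7 entered the edgeR counts only through treated tumors, since most of their saline tumors held fewer than 10 counts. That filter favors genes that are higher with treatment.

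By role, of 28 tested ligands, the fitted log2 fold change was above 0 for 22 with i.v. TLZ (median 0.88), 26 with NanoTLZ (median 1.34) and 27 for both treatments (median 1.22). Of 17 tested receptors it was above 0 for 6 (median -0.13), 9 (median 0.36) and 9 (median 0.06). Over all tested genes the medians were -0.03, -0.09 and -0.06, and 47.6%, 43.9% and 46% of genes lay above 0. Ligand counts summed to 515, 814 and 338 CPM in saline, 2142, 801 and 694 CPM with i.v. TLZ and 1457, 920.4 and 1233 CPM with NanoTLZ. The lowest NanoTLZ sum thus lay above the highest saline sum, while the i.v. TLZ and saline sums overlapped, and on average 29.4% of the sum came from the single most abundant ligand, Cxcl14. Receptor counts summed to 202, 377 and 182 CPM in saline, 315, 139 and 252 CPM with i.v. TLZ and 335, 349 and 417 CPM with NanoTLZ. Both treated groups overlapped saline, while the NanoTLZ sums all lay above the i.v. TLZ sums. On average 36.3% of the receptor sum came from Cx3cr1, and without that gene the NanoTLZ and i.v. TLZ sums overlapped.

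These counts rested on few tumors. Saline 3 was the lowest of the 9 tumors for 23 of the 45 genes and saline 1 for 10. Neither this count nor that of genes above every saline value, given below, was made over all tested genes. Both describe the tumors and are not read as a trait of the chemokine genes. The 11 genes higher with NanoTLZ at unadjusted p under 0.05 became 22 without saline 2, 7 without saline 1, 6 without saline 3, 6 without NanoTLZ 2 and 4 without NanoTLZ 1. The 8 genes with i.v. TLZ became 15 without saline 2 and 5 without saline 1, and the 10 genes for both treatments became 16 without saline 2, 18 without i.v. TLZ 2 and 6 without NanoTLZ 1. Without i.v. TLZ 1, the tumor in which 26 of 45 genes exceeded every saline value, the fitted change with i.v. TLZ was above 0 for 19 of 46 tested genes, with a median of -0.21. It was above 0 for 36 of 45 without saline 2 (median 1.25) and for 37 of 47 without i.v. TLZ 2 (median 0.93).

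**Figure D2:**
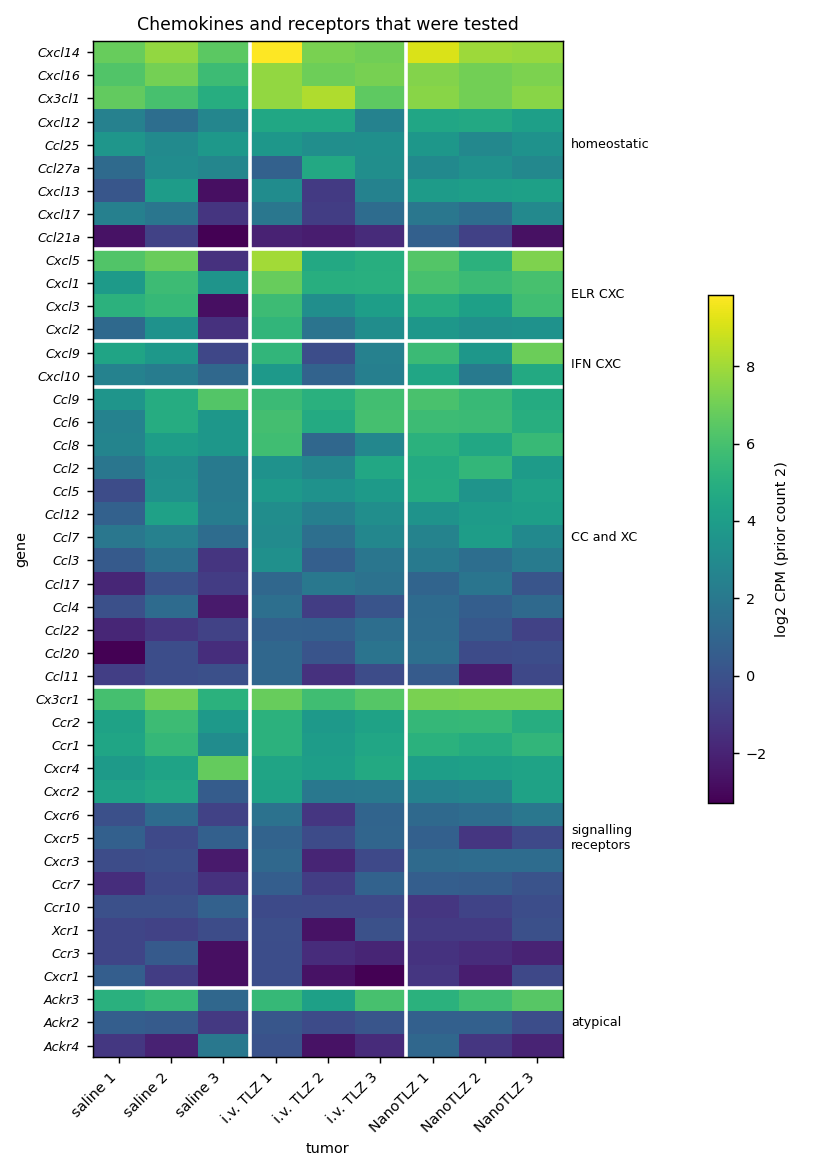
Log2 CPM (with a prior count of 2) of 44 of the 45 tested genes in each of the 9 tumors, rows grouped by role and columns by treatment. Saline 3 is the darkest column for Cxcl5, Cxcl3, Cxcl2 and Cxcl9 and the brightest for Cxcr4.

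Cxcl12, a homeostatic ligand of stromal cells, measured 5.49, 2.67 and 6.47 CPM in the saline tumors, 23.1, 22.8 and 5.68 CPM with i.v. TLZ and 21.95, 24.7 and 17.1 CPM with NanoTLZ. All 3 NanoTLZ tumors and 2 of the 3 i.v. TLZ tumors lay above every saline tumor, and i.v. TLZ 3 lay among the saline values. The gene (ENSMUSG00000061353, chromosome 6, 117168535 to 117181367, GRCm38) was singled out by the study from these same tumors, so its values are a description and not independent evidence. From the sequencing, with DESeq2 and an adjusted p under 0.05, the paper listed Cxcl12 as regulated by NanoTLZ and unaffected by free i.v. Talazoparib. The paper reported that real-time PCR, which added tumors of further mice, matched the sequencing for Cxcl12. It also reported higher Cxcl12 by PCR after empty nanoparticles, a group that was not sequenced. Its fitted log2 fold change in edgeR was 1.82 ± 0.55 (SE, 95% interval 0.59 to 3.04) with i.v. TLZ and 2.12 ± 0.56 (0.88 to 3.36) with NanoTLZ, with Benjamini-Hochberg adjusted p of 0.420 and 0.552. For both treatments together it was 1.97 ± 0.51 with an edgeR adjusted p of 0.277. The difference of NanoTLZ from i.v. TLZ was 0.30 ± 0.53, with an interval from -0.88 to 1.49, and turned to -0.09 without i.v. TLZ 3.

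The tool decided the call on Cxcl12. DESeq2 on all 9 tumors gave an adjusted p of 0.0372 for NanoTLZ and 0.00921 for both treatments, with log2 fold changes of 2.13 and 1.97. Over 19 alternative settings the adjusted p for NanoTLZ ran from 0.00156 to 0.901, and over 17 settings that for both treatments from 0.00757 to 0.487. For i.v. TLZ no setting passed, and the adjusted p ran from 0.0715 to 0.779.

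The 250 bases before the annotated start of Cxcl12, on chr6:117168285-117168534 of GRCm38.p6 and the plus strand (RefSeq), are shown because the gene is the named ligand of the set. Capitals mark 5 GC boxes, searched as GGGCGG on either strand, and 1 match to the NF-kB type pattern GGGNNNNNCC on either strand, which overlap in places.

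Cxcl12: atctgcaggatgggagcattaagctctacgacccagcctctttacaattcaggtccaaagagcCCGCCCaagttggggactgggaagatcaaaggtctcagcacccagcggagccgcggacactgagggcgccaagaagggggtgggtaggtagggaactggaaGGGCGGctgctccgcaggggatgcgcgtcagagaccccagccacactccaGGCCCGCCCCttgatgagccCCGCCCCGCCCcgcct

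The GC box occurs in 32.7% of all 32851 RefSeq windows of this length and in 8 of the 46 windows of chemokine system genes. The NF-kB type pattern is common, in 45.8% of all windows and in 27 of the 46.

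Its signalling receptor Cxcr4 measured 14.7, 20.02 and 106 CPM in saline, 20.8, 16.9 and 25.9 CPM with i.v. TLZ and 16.8, 18.2 and 20.2 CPM with NanoTLZ. Saline 3 alone was high, and the other 8 tumors lay between 14.7 and 25.9 CPM with the groups overlapping. The fitted log2 fold change for both treatments was -1.25 ± 0.53 (unadjusted p 0.0396, adjusted p 0.362, edgeR), the only gene of the 45 lower at an unadjusted p under 0.05, and it was 0.20 without saline 3. Ackr3, the atypical receptor that takes up Cxcl12, measured 32.6, 44.9 and 2.06 CPM in saline, 44.7, 17.7 and 65.7 CPM with i.v. TLZ and 33.7, 56.0 and 85.7 CPM with NanoTLZ. Here saline 3 was the lowest tumor and the groups overlapped. The fitted log2 fold change was 0.69 ± 0.84 with i.v. TLZ and 1.14 ± 0.85 with NanoTLZ, with edgeR adjusted p of 0.799 and 0.672, and 0.15 and 0.62 without saline 3.

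As a description over the 9 tumors, the tested genes whose log2 CPM ranked most like Cxcl12 were Ccl17 (Spearman 0.70), Cx3cl1 (0.68), Cxcl14 (0.63), Ccl7 (0.52) and Ccl2 (0.50). Those least like it were Ccr10 (-0.58), Xcr1 (-0.35), Cxcr2 (-0.20), Cxcr5 (-0.17) and Ccr3 (-0.13). These correlations pool tumors of 3 treatments that share a library type and similar depth, and the group differences enter them.

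Ccl22, Cx3cl1 and Ccl17 are neighbours on the plus strand of chromosome 8, at 94745590 to 94751699, 94772009 to 94782427 and 94810453 to 94812036. Ccl17 and Ccl22 attract T cells through Ccr4 and are made mainly by dendritic cells and macrophages. Cx3cl1, or fractalkine, is a membrane-anchored ligand of epithelium and endothelium that binds Cx3cr1. All 3 genes had an unadjusted p under 0.05 in edgeR against saline with each treatment, so their upstream sequence is shown, cut where an annotated exon begins. Ccl22 and Ccl17 passed the count filter only through treated tumors, as most of their saline tumors held fewer than 10 counts. Their edgeR p-values are therefore descriptions. Capitals mark matches to GGGNNNNNCC on either strand. The windows are chr8:94745434-94745589 (Ccl22), chr8:94771930-94772008 (Cx3cl1) and chr8:94810203-94810452 (Ccl17), all of GRCm38.p6 and on the plus strand.

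Ccl22: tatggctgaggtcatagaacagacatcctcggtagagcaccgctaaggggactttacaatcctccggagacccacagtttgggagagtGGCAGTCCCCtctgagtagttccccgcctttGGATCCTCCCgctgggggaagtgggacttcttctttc

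Cx3cl1: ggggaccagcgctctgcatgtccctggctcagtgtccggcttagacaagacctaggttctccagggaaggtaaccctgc

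Ccl17: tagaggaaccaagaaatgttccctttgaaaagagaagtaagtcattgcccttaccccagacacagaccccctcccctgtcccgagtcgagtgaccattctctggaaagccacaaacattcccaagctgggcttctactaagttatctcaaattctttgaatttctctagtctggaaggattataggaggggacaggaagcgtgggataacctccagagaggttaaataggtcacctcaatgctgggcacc

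The pattern had 2 matches in the Ccl22 stretch and 0 in the Ccl17 stretch and the short Cx3cl1 stretch, and a match is a run of letters rather than a known site.

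Ccl22 measured 0.172, 0.334 and 0.505 CPM in saline, 1.65, 1.59 and 2.597 CPM with i.v. TLZ and 2.46, 1.15 and 0.517 CPM with NanoTLZ. Every treated tumor lay above every saline tumor, though NanoTLZ 3 only just, and the saline values rest on 3, 7 and 11 counts. In edgeR the log2 fold change was 2.49 ± 0.70 with i.v. TLZ and 1.997 ± 0.69 with NanoTLZ, with unadjusted p of 0.00518 and 0.0165 and adjusted p of 0.417 and 0.552.

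Ccl17 measured 0.172, 0.905 and 0.413 CPM in saline, 2.04, 3.83 and 3.08 CPM with i.v. TLZ and 1.83, 3.38 and 1.03 CPM with NanoTLZ. All 6 treated tumors again lay above the 3 saline tumors, which held 3, 19 and 9 counts. edgeR gave a log2 fold change of 2.56 ± 0.71 with i.v. TLZ and 2.04 ± 0.70 with NanoTLZ, with adjusted p of 0.417 and 0.552. DESeq2 on all 9 tumors called Ccl17 with i.v. TLZ (adjusted p 0.0280) and called both Ccl17 (0.0183) and Ccl22 (0.0402) for both treatments together. The adjusted p for both treatments ran from 0.0153 to 0.487 for Ccl17 and from 0.0349 to 0.487 for Ccl22 over 16 settings each, and that of Ccl17 with i.v. TLZ from 0.0242 to 0.779 over 18.

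Cx3cl1 measured 104, 65.6 and 29.7 CPM in saline, 210.4, 307 and 96.8 CPM with i.v. TLZ and 183, 134 and 184 CPM with NanoTLZ. The NanoTLZ tumors lay above all saline tumors, and i.v. TLZ 3 lay just below saline 1. The log2 fold change in edgeR was 1.63 ± 0.50 (adjusted p 0.425) with i.v. TLZ and 1.33 ± 0.50 (adjusted p 0.552) with NanoTLZ. Without saline 3 it was 1.29 and 1.01.

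Dendritic cell markers (Flt3, Zbtb46, Clec9a, Itgax, Fscn1 and Batf3) were summed beside these genes. They came to 257, 395 and 189 CPM in saline, 416, 406 and 537 CPM with i.v. TLZ and 267, 330 and 408 CPM with NanoTLZ, and Fscn1 made up most of the sum in every tumor. Fscn1 alone measured 221, 320 and 175 CPM in saline, 319, 340 and 469 CPM with i.v. TLZ and 148, 249 and 321 CPM with NanoTLZ. The group order of the sum is thus that of Fscn1 and does not describe the other markers. Markers with every treated tumor above saline numbered 0 of 6 with i.v. TLZ and 3 of 6 with NanoTLZ. Of all genes 5.99% and 7.82% did so. The fitted change was above 0 for 6 of 6 markers with each treatment, with 1 of 6 (Zbtb46) at an unadjusted p under 0.05 by edgeR. Of all genes 4.91% with i.v. TLZ and 3.51% with NanoTLZ were higher at that threshold. Their part in the levels of Ccl17 and Ccl22 was not tested.

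**Figure D3:**
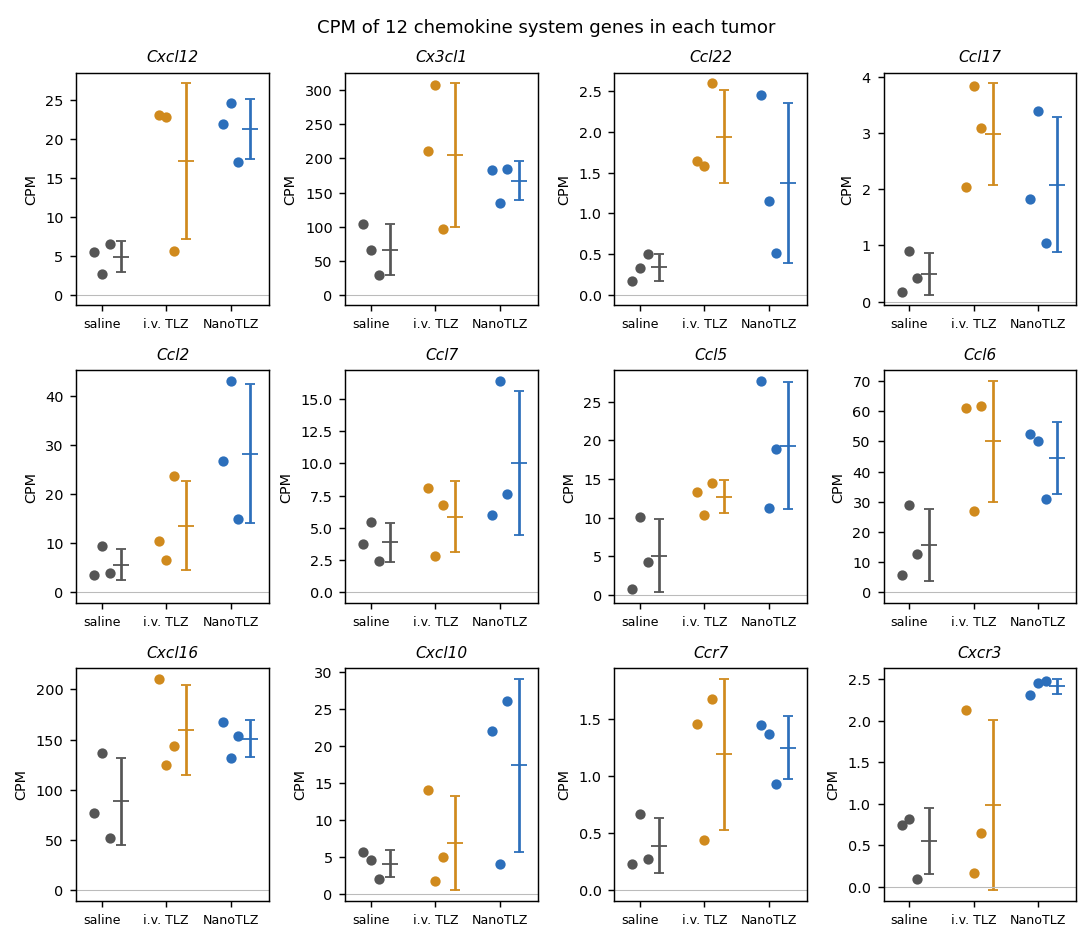
CPM of 12 chemokine system genes in each of the 9 tumors, by group; points are tumors and the bar beside them is the mean with 1 SD (n = 3). Ccl22, Ccl17 and Ccl5 are the genes in which all 6 treated tumors lie above the 3 saline tumors, and in Cxcl12 the third i.v. TLZ tumor sits among the saline values.

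The inflammatory CC and XC ligands attract monocytes, T cells and other leukocytes to inflamed tissue. Of 17 such genes 13 were tested, and the fitted log2 fold change was above 0 for 12 with i.v. TLZ, 12 with NanoTLZ and 13 for both treatments, with medians of 1.26, 1.501 and 1.55. Those at an unadjusted p under 0.05 in edgeR, all higher, numbered 4, 6 and 6, where 4.91%, 3.51% and 4.8% of all genes were higher. These counts include Ccl17 and Ccl22 with each treatment and Ccl20 with i.v. TLZ. Those genes passed the count filter only through treated tumors, so the counts are descriptions and no test of the group. Many of these genes sit in 2 clusters on chromosome 11, with Ccl2, Ccl7, Ccl11, Ccl12, Ccl8 and Ccl1 in the first and Ccl5, Ccl9, Ccl6, Ccl3 and Ccl4 in the second.

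Ccl2, the main ligand of Ccr2 on inflammatory monocytes, measured 3.60, 9.34 and 4.04 CPM in saline, 10.4, 6.56 and 23.8 CPM with i.v. TLZ and 26.7, 43.0 and 14.8 CPM with NanoTLZ. The NanoTLZ tumors were clear of the saline tumors, and i.v. TLZ 2 lay below saline 2. With edgeR, the log2 fold change came to 1.26 ± 0.60 with i.v. TLZ (adjusted p 0.497) and 2.31 ± 0.62 with NanoTLZ (unadjusted p 0.00369, adjusted p 0.552). NanoTLZ exceeded i.v. TLZ by 1.05 ± 0.59 on the log2 scale, with a 95% interval of -0.26 to 2.37 that includes 0. DESeq2 on all 9 tumors called Ccl2 with NanoTLZ (adjusted p 0.0319) and for both treatments (0.0430). Over 19 and 17 settings these ran from 0.00984 to 0.901 and from 0.0371 to 0.512.

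Ccl7, the neighbour of Ccl2 and another Ccr2 ligand, measured 3.72, 5.48 and 2.43 CPM in saline, 8.10, 2.79 and 6.76 CPM with i.v. TLZ and 5.97, 16.4 and 7.66 CPM with NanoTLZ. The NanoTLZ values all lay above saline, as did i.v. TLZ 1 and 3, while i.v. TLZ 2 lay within the saline range. The edgeR log2 fold change was 0.60 ± 0.56 (adjusted p 0.725) and 1.37 ± 0.57 (unadjusted p 0.0377, adjusted p 0.552). Ccl8, from the same cluster, measured 6.07, 16.3 and 12.4 CPM in saline, 56.9, 2.02 and 6.76 CPM with i.v. TLZ and 34.6, 24.2 and 47.2 CPM with NanoTLZ. The i.v. TLZ group held both the highest and the lowest tumor of all, and the NanoTLZ tumors lay above saline. Its edgeR log2 fold change was 0.92 ± 0.94 (adjusted p 0.753), turning to -1.40 without i.v. TLZ 1, and 1.61 ± 0.95 with NanoTLZ (adjusted p 0.611).

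Ccl5, which attracts T cells and monocytes and is made by T cells and macrophages, measured 0.744, 10.1 and 4.27 CPM in saline, 13.3, 10.4 and 14.5 CPM with i.v. TLZ and 27.7, 11.2 and 18.9 CPM with NanoTLZ. All 6 treated tumors lay above saline, i.v. TLZ 2 only just above saline 2. In edgeR, the fitted log2 fold change was 1.33 ± 0.72 (unadjusted p 0.0950, adjusted p 0.537) and 1.93 ± 0.73 (unadjusted p 0.0250, adjusted p 0.552). Ccl6, a mouse CC chemokine of myeloid cells, measured 5.66, 28.8 and 12.6 CPM in saline, 61.2, 26.8 and 61.8 CPM with i.v. TLZ and 52.5, 50.0 and 30.8 CPM with NanoTLZ. Of the treated tumors i.v. TLZ 2 lay within the saline range. edgeR gave a log2 fold change of 1.67 ± 0.56 (adjusted p 0.437) and 1.501 ± 0.56 (adjusted p 0.552).

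Ccl20, the ligand of Ccr6, had 0 counts in saline 1, which allows up to 0.172 CPM, and measured 0.763 and 0.229 CPM in the other saline tumors, 2.04, 0.984 and 3.25 CPM with i.v. TLZ and 2.79, 0.709 and 0.776 CPM with NanoTLZ. The i.v. TLZ tumors all lay above saline and NanoTLZ 2 lay just below saline 2. The edgeR log2 fold change was 2.62 ± 1.06 (unadjusted p 0.0329, adjusted p 0.452) and 2.07 ± 1.05 (adjusted p 0.573). Ccl20 passed the count filter only through treated tumors, so these p-values are descriptions. Among the members of this group at higher unadjusted p, Ccl9 ran from 11.8 to 81.1 CPM with its maximum in saline 3, and its log2 fold change was 0.22 and 0.24 with all tumors but 1.23 and 1.26 without saline 3 (unadjusted p 0.0367 and 0.0326, edgeR).

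Macrophage markers (Adgre1, Csf1r, Cd68, Mrc1, Itgam and C1qa) summed to 334, 1028 and 279 CPM in saline, 1009, 445 and 803 CPM with i.v. TLZ and 979, 1015 and 1305 CPM with NanoTLZ. The fitted change was above 0 for 6 of 6 markers with each treatment, and 2 of 6 were at an unadjusted p under 0.05 by edgeR with NanoTLZ and 0 of 6 with i.v. TLZ. Of all genes 3.51% and 4.91% were higher at that threshold. Saline 2, the saline tumor with the highest macrophage sum, also had the highest saline value of Ccl2, Ccl5, Ccl6, Ccl7, Ccl8, Ccr1, Ccr2 and Cx3cr1. Ccl9, Ccl11 and Ccl22 were instead highest in saline 3 among the saline tumors. Saline 2 also had the highest neutrophil marker sum in saline, at 199.5 CPM, so its high values are not particular to macrophage genes. The part of macrophage content in these levels was not tested.

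**Figure D4:**
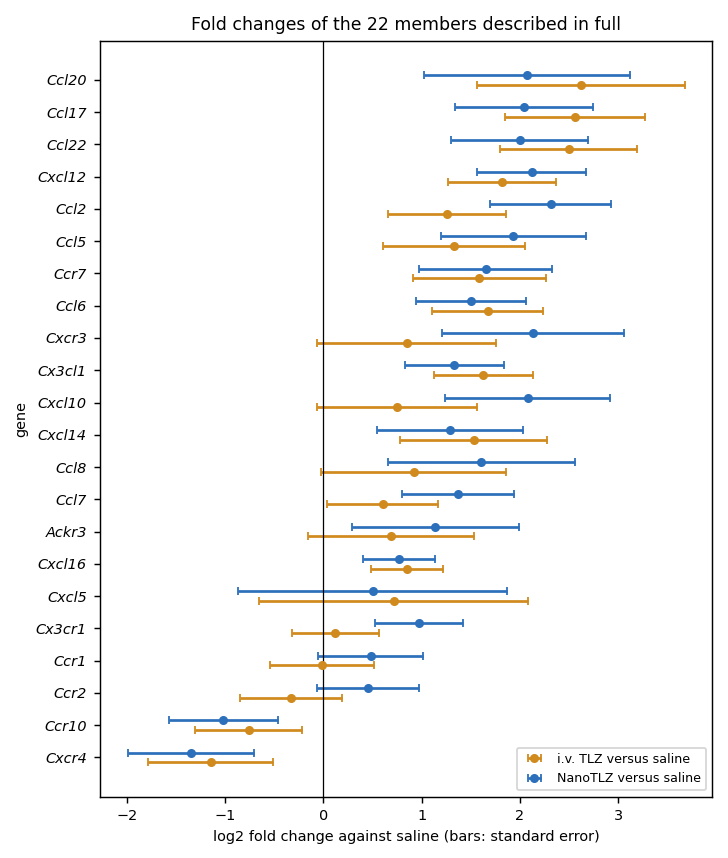
Log2 fold change against saline of the 22 genes described in full, for i.v. TLZ and NanoTLZ, with the standard error from edgeR as bars and genes ordered by the mean of both treatments. Ccl20, Ccl17, Ccl22 and Cxcl12 lie at the right with estimates between 1.82 and 2.62, and Cxcr4 and Ccr10 at the left.

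Homeostatic ligands numbered 11, of which 9 were tested. The fitted change was above 0 for 5 with i.v. TLZ and 8 with NanoTLZ, with 3 and 2 genes at an unadjusted p under 0.05 in edgeR, all higher. Of all genes 4.91% and 3.51% were higher at that threshold. Beside Cxcl12 and Cx3cl1 the group holds Cxcl16, a membrane-anchored ligand that attracts T cells through Cxcr6. Cxcl16 measured 77.1, 136 and 52.0 CPM in saline, 211, 124 and 144 CPM with i.v. TLZ and 168, 132 and 154 CPM with NanoTLZ. Saline 2 overlapped both treated groups. Fitted in edgeR, the log2 fold change was 0.85 ± 0.37 (unadjusted p 0.0435, adjusted p 0.467) and 0.77 ± 0.37 (adjusted p 0.564). Exons of Cxcl16 overlap those of Zmynd15 on the opposite strand over 552 bases, and since the strand setting of the counting is not given, some reads could belong to either gene.

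Cxcl14, an epithelial and stromal chemokine and the most abundant ligand, measured 113, 209 and 91.6 CPM in saline, 920.5, 147 and 126 CPM with i.v. TLZ and 541, 244 and 228 CPM with NanoTLZ. The NanoTLZ tumors lay above saline, whereas with i.v. TLZ only tumor 1 did. In edgeR, the fitted log2 fold change was 1.53 ± 0.75 (adjusted p 0.507) with i.v. TLZ, -0.02 without i.v. TLZ 1, and 1.29 ± 0.74 (adjusted p 0.602) with NanoTLZ. Cxcl13, the B cell attractant, measured 15.1, 16.97 and 18.3 CPM with NanoTLZ and 8.53, 0.383 and 5.68 CPM with i.v. TLZ, while saline ran from 0.0459 to 15.5 CPM. It was among the 4 genes whose NanoTLZ tumors all lay above the i.v. TLZ tumors, with a log2 difference of 1.78 and an unadjusted edgeR p of 0.228. Ccl25 stayed within 7.15 to 13.0 CPM in all 9 tumors, with exons that overlap the antisense gene Elavl1.

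Fibroblast markers (Col1a1, Col1a2, Col3a1, Pdgfra, Dcn, Lum, Fap and Thy1) summed to 2045, 1439 and 1438 CPM in saline, 6019, 986 and 2482 CPM with i.v. TLZ and 3079, 2521 and 1676 CPM with NanoTLZ. The highest sum and the highest Cxcl14 value were both in i.v. TLZ 1, and i.v. TLZ 2, with the lowest fibroblast sum, had 22.8 CPM of Cxcl12. Of 8 markers 8 and 7 had a fitted change above 0 with i.v. TLZ and NanoTLZ, and 1 and 2 were at an unadjusted p under 0.05 by edgeR, Dcn in both and Pdgfra with NanoTLZ. Of all genes 4.91% and 3.51% were higher at that threshold. Endothelial markers summed to 139, 178 and 70.2 CPM in saline, 203, 80.1 and 100.04 CPM with i.v. TLZ and 196, 228 and 175 CPM with NanoTLZ. The part of stromal content in the Cxcl12 and Cxcl14 levels was not tested.

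The neutrophil-attracting CXC ligands, which carry the ELR motif and bind Cxcr2, gave no gene at an unadjusted p under 0.05 in edgeR in any comparison (4 of 5 tested). Cxcl5 measured 78.7, 114 and 0.275 CPM in saline, 261, 24.4 and 30.6 CPM with i.v. TLZ and 80.6, 35.3 and 157 CPM with NanoTLZ. Apart from saline 3 the groups overlapped throughout. The edgeR log2 fold change was 0.71 ± 1.37 (adjusted p 0.881) and 0.50 ± 1.37 (adjusted p 0.925), and 0.13 and -0.05 without saline 3. Cxcl3 likewise was at 0.0459 CPM in saline 3 and at 8.97 to 56.6 CPM in the other 8 tumors.

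Neutrophil markers (S100a8, S100a9, Csf3r, Ly6g, Retnlg and Mmp8) followed the same outline, at 90.3, 199.5 and 8.85 CPM in saline, 173, 47.2 and 41.3 CPM with i.v. TLZ and 79.8, 53.9 and 169 CPM with NanoTLZ. Cxcr2, the neutrophil receptor, was at 18.8, 24.2 and 1.33 CPM in saline and at 3.88 to 19.2 CPM in treated tumors. Saline 3 was thus lowest for the ligands Cxcl5 and Cxcl3, the receptor and the marker sum. Whether neutrophil content had a part in the ligand levels was not tested.

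**Figure D5:**
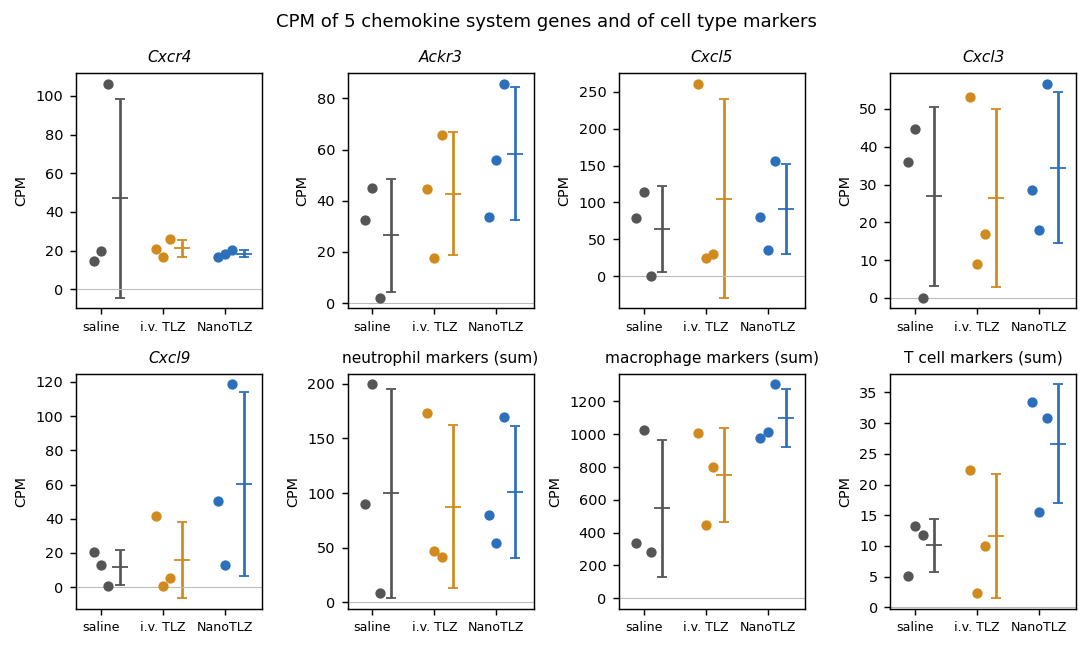
CPM of 5 chemokine system genes, and summed CPM of neutrophil, macrophage and T cell markers (6 genes each), by group; points are tumors and the bar beside them is the mean with 1 SD (n = 3), so a bar may run below 0. Cxcr4 is high in saline 3 alone, while Ackr3, Cxcl5, Cxcl3 and the neutrophil sum are lowest there. For Cxcl9 saline 3 is also the lowest tumor, close to the second i.v. TLZ tumor.

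The interferon-inducible ligands Cxcl9 and Cxcl10 attract activated T cells and NK cells through Cxcr3. Cxcl10 measured 5.66, 4.62 and 2.11 CPM in saline, 14.1, 1.75 and 5.03 CPM with i.v. TLZ and 22.1, 4.15 and 26.1 CPM with NanoTLZ. NanoTLZ 1 and 3 were high and NanoTLZ 2 lay within the saline range. With edgeR, the log2 fold change came to 0.75 ± 0.81 (adjusted p 0.769) with i.v. TLZ, -0.28 without i.v. TLZ 1, and 2.08 ± 0.84 (unadjusted p 0.0326, adjusted p 0.552) with NanoTLZ. Its exons overlap 133 bases of Art3 on the opposite strand, but Art3 had 560 counts in all against 1696 for Cxcl10. Cxcl9 measured 20.8, 13.2 and 0.596 CPM in saline, 41.3, 0.765 and 5.41 CPM with i.v. TLZ and 50.3, 12.7 and 119 CPM with NanoTLZ, with the groups overlapping and unadjusted edgeR p of 0.737 and 0.117.

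Cxcr3 measured 0.744, 0.810 and 0.0917 CPM in saline, 2.13, 0.164 and 0.649 CPM with i.v. TLZ and 2.31, 2.46 and 2.48 CPM with NanoTLZ. The 3 NanoTLZ tumors lay close together and above all other tumors. Fitted in edgeR, the log2 fold change was 0.85 ± 0.91 (adjusted p 0.767) and 2.13 ± 0.93 (unadjusted p 0.0438, adjusted p 0.552), and the difference of NanoTLZ from i.v. TLZ was 1.29 ± 0.89 (95% interval -0.70 to 3.28). T cell markers (Cd3d, Cd3e, Cd3g, Cd4, Cd8a and Trac) summed to 5.15, 13.3 and 11.8 CPM in saline, 22.4, 2.41 and 10.01 CPM with i.v. TLZ and 33.5, 15.6 and 30.9 CPM with NanoTLZ. The NanoTLZ sums also lay above the saline sums. Of the 6 markers 1 (Cd3d) had every NanoTLZ tumor above saline, where 7.82% of all genes did, and the others overlapped. With NanoTLZ 6 of 6 markers had a fitted change above 0 and 0 of 6 an unadjusted p under 0.05 by edgeR, where 3.51% of all genes were higher. The part of T cell content in the Cxcr3 level was not tested.

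Signalling receptors numbered 18, of which 14 were tested, with a fitted change above 0 for 5 with i.v. TLZ (median -0.13) and 7 with NanoTLZ (median 0.13). Ccr7, which guides mature dendritic cells and naive T cells toward lymph nodes, measured 0.229, 0.667 and 0.275 CPM in saline, 1.45, 0.437 and 1.68 CPM with i.v. TLZ and 1.44, 1.36 and 0.931 CPM with NanoTLZ. All NanoTLZ tumors and 2 of the i.v. TLZ tumors lay above saline. Its edgeR log2 fold change was 1.59 ± 0.67 (unadjusted p 0.0405, adjusted p 0.460) and 1.65 ± 0.68 (unadjusted p 0.0343, adjusted p 0.552), on 4, 14 and 6 saline counts. Ccr7 passed the count filter only through treated tumors, so these p-values are descriptions. Its own ligand Ccl21a was at or below 1.59 CPM in every tumor.

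Cx3cr1, the most abundant receptor, measured 62.7, 133 and 34.8 CPM in saline, 111, 56.4 and 82.8 CPM with i.v. TLZ and 146, 152 and 155 CPM with NanoTLZ. The NanoTLZ tumors were tightly grouped and lay above all saline and all i.v. TLZ tumors. The edgeR log2 fold change was 0.12 ± 0.44 (adjusted p 0.941) with i.v. TLZ and 0.98 ± 0.45 (unadjusted p 0.0543, adjusted p 0.562) with NanoTLZ. The direct difference between the treatments was 0.85 ± 0.45 (95% interval -0.14 to 1.85, unadjusted p 0.0848, edgeR), and 0.87 with an unadjusted p of 0.0284 without saline 3, with an adjusted p of 0.999. Genes whose NanoTLZ tumors all lay above the i.v. TLZ tumors were Cxcl13, Ccl12, Cxcr3 and Cx3cr1, 4 of 45, where 3.2% of all genes did so, and 0 of 45 lay entirely below, where 4.41% did.

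Ccr1 and Ccr2, receptors of monocytes and macrophages, overlapped between all groups. Ccr1 measured 21.8, 43.9 and 8.44 CPM in saline, 35.3, 15.5 and 22.3 CPM with i.v. TLZ and 33.8, 29.0 and 40.5 CPM with NanoTLZ. Ccr2 measured 19.5, 52.8 and 13.8 CPM in saline, 35.1, 13.9 and 19.4 CPM with i.v. TLZ and 43.5, 45.02 and 29.6 CPM with NanoTLZ. For both genes saline 2 was the highest and saline 3 the lowest of all 9 tumors, so every treated value lay inside the saline range. The edgeR log2 fold changes were -0.02 ± 0.53 and 0.48 ± 0.53 for Ccr1 and -0.33 ± 0.52 and 0.46 ± 0.52 for Ccr2, with adjusted p of 0.784 to 0.992. Their 95% intervals, such as -0.70 to 1.66 for Ccr1 with NanoTLZ, leave room for a change in either direction.

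Ccr10, the receptor of the epithelial ligands Ccl27 and Ccl28, was the gene whose 6 treated tumors all lay below the 3 saline tumors. It measured 0.858, 0.858 and 1.65 CPM in saline, 0.679, 0.656 and 0.649 CPM with i.v. TLZ and 0.337, 0.546 and 0.776 CPM with NanoTLZ, from 7 to 36 counts a tumor. The highest treated value, in NanoTLZ 3, lay just below the lowest saline value. edgeR gave a log2 fold change of -0.76 ± 0.55 (adjusted p 0.627) and -1.02 ± 0.55 (unadjusted p 0.0942, adjusted p 0.588), and -0.36 and -0.60 without saline 3. Of the 45 tested genes 3 lay entirely above saline in all 6 treated tumors (Ccl22, Ccl17 and Ccl5) and 1 entirely below, where 2.81% and 2.66% of all genes did so. Ccl22 and Ccl17 were among the tested genes only because treated tumors had enough counts. For single treatments the counts were 4 above and 1 below with i.v. TLZ (5.99% and 5.2% of all genes) and 13 above and 1 below with NanoTLZ (7.82% and 8.13%).

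Among the atypical receptors, Ackr2 and Ackr4 were tested beside Ackr3. Ackr2, which scavenges inflammatory CC ligands, ran from 0.367 CPM in saline 3 to 1.59 CPM in NanoTLZ 1. Ackr4, which takes up the ligands of Ccr7 and Ccr9, was highest in saline 3 at 3.85 CPM and lay at 0.0547 to 2.07 CPM elsewhere. None of the 3 reached an unadjusted p under 0.05 by edgeR in any comparison. Ackr1, the Duffy antigen of venules and red cells, was untested with all tumors, at 0 to 0.114 CPM in saline, 0.108 to 0.339 CPM with i.v. TLZ and 0.414 to 1.73 CPM with NanoTLZ. Without saline 3 it passed the filter only through NanoTLZ 1 and 2, at 36 and 10 counts. Its fitted log2 fold change of 3.94 with NanoTLZ there is thus a description and no test. Ackr1 shares 361 exon bases with Cadm3.

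Genes that act with the chemokine system were described from 4 lists, again at an unadjusted p under 0.05 by edgeR. Of 20 genes that signal below the receptors, such as Gnai2, Rac2, Arrb2 and Dock2, all were tested. With i.v. TLZ 1 was higher (Ptk2b, log2 fold change 0.89) and 1 lower (Elmo1, -1.35), a share near that of all genes (4.91% and 5.47%). With NanoTLZ 0 passed, where 3.51% of all genes were higher and 5.49% lower. For both treatments 2 were lower (Elmo1, -1.12, and Gnai3, -0.54), where 8.29% of all genes were. Of 12 genes that cut, present or bind chemokines 11 were tested. Those higher at that threshold numbered 1 with i.v. TLZ, 1 with NanoTLZ and 2 for both treatments. Of all genes 4.91%, 3.51% and 4.8% were higher. Ext1, which builds heparan sulfate, was at 1.001 with i.v. TLZ and 0.89 for both treatments, and Mmp2, a protease that cleaves Cxcl12 and Ccl7, at 1.73 with NanoTLZ and 1.54 for both treatments. Sdc1, a heparan sulfate proteoglycan of epithelium, was lower with NanoTLZ than with i.v. TLZ by a log2 difference of -1.10, where 1.23% of all genes were lower. Of 14 upstream regulators 12 were tested, with Tnf at 1.67 for NanoTLZ (unadjusted p 0.0472, adjusted p 0.553, edgeR), at 1.66 for both treatments and at 1.65 for i.v. TLZ (unadjusted p 0.05001, just above the threshold). Of these 12 genes 0 passed with i.v. TLZ, 1 with NanoTLZ and 1 for both treatments, against the same shares of all genes. The 6 chemokine system genes with other symbols (Pf4, Ppbp, Ccrl2, Gpr182, Mif and Cd74) had no gene at an unadjusted p under 0.05 by edgeR in any comparison. No gene of these 4 lists was called at an adjusted p under 0.05.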

How the data were processed

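RNA from 9 mouse mammary gland tumors was sequenced. The values are raw read counts per gene, deposited by the authors as 1 table with Ensembl identifiers. The submitters' processing notes name TopHat2, DESeq2 and mm10 without versions or roles, and the counting program, annotation and strand setting are not given in the sources used here. Identifiers were paired with symbols through GENCODE for GRCm38 (34490 of 35275 matched). Promoter windows were taken from RefSeq (GRCm38.p6) for 46 of the 60 genes. Entries for Ccl2, Ccl5, Ccl7 and Ccr7 were missing.

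Counts were fitted with edgeR 4.0.16 in R 4.3.3, with TMM scaling, filterByExpr (minimum count 10, minimum total 15), 1 coefficient per group over all 9 tumors and quasi-likelihood tests, and p-values were adjusted by Benjamini-Hochberg over 15821 genes. The biological coefficient of variation was 49.8%, and the totals of 17538380 to 21194980 counts limit precision for genes of few counts. The fitting code was tested on simulated data. Alternatives were DESeq2 1.42.0, limma-voom (limma 3.58.1), other scalings, filters and sample sets, and leaving out each tumor. Replicate numbers follow accession order and pair nothing. The study's methods name DESeq2 without saying which tumors entered, so edgeR was kept as the main test for counts.

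Genes described in full were Cxcl12, Cxcr4, Ackr3, every chemokine system gene with an adjusted or unadjusted p under 0.05 in a comparison or with all 6 treated tumors on 1 side of saline, and the 5 ligands and 5 receptors with the highest level per kilobase. Others named with values, such as Ccl9, Cxcl9, Cxcl13 and Ackr1, were chosen after their values were seen. The genes and lists were chosen with earlier results of these data known. Counts and sums cover the whole set, of which 1 gene is not reported here. Levels are CPM, and fold changes are on the log2 scale. Limits of detection at 3 counts cover counting error only.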

Additional observations from a re-analysis of the deposited data

How the results depend on the processing

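No paired analysis was possible because the labels give no replicate numbers that the groups share. The count of chemokine system genes called was 0 in every comparison with edgeR under each scaling and filter tried and with limma-voom, and with each tumor left out (lowest 0, highest 0). With DESeq2 on all 9 tumors it was 1 for i.v. TLZ, 2 for NanoTLZ and 4 for both treatments, and the same numbers without the Cook's filter, where it called 101 and 94 genes of 25112 higher and lower with i.v. TLZ, 54 and 46 with NanoTLZ and 129 and 148 for both, or, without that filter, 126 and 125 of 25483, 65 and 92, and 158 and 223. With DESeq2 on the compared groups it was 0 for i.v. TLZ (47 and 44 of 24188 genes called) and 2 for NanoTLZ (82 and 84 of 24106). For both treatments the compared groups are all 9 tumors, so no separate fit exists. Cxcl12 passed the threshold in DESeq2 with a log2 fold change of 2.13 for NanoTLZ under these 3 settings and 1.97 for both treatments under 2. Leaving out each tumor, Cxcl12 ranged from 1.52 to 2.2499 for i.v. TLZ, from 1.83 to 2.41 for NanoTLZ, from 1.67 to 2.252 for both treatments and from -0.093 to 0.58 between the treatments. The cause of the difference between tools was not tested.

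With i.v. TLZ, Ccl8 was at -0.19 in limma-voom, and Ccr1 at 0.22 in limma-voom, 0.022 with upper quartile scaling and 0.00043 when 10 counts were required in every tumor. With 1 tumor left out, the values that changed sign ranged for i.v. TLZ from -1.40 to 1.45 (Ccl8), -0.43 to 0.69 (Ccr1), -0.79 to 0.45 (Ccr2), -0.22 to 0.77 (Cx3cr1), -0.28 to 1.21 (Cxcl10), -0.016 to 1.96 (Cxcl14), -1.23 to 1.41 (Cxcl5), -0.42 to 1.34 (Cxcr3) and -1.56 to 0.30 (Cxcr4). For NanoTLZ they were -0.12 to 1.20 (Cxcl5) and -1.74 to 0.11 (Cxcr4), and for both treatments -0.17 to 0.94 (Ccr1), -0.26 to 0.85 (Ccr2), -0.36 to 1.30 (Cxcl5) and -1.65 to 0.20 (Cxcr4). Of the other genes described in full, 578 values under the remaining alternatives kept their direction and side of the threshold and 11 newly passed it. Without saline 3 the i.v. TLZ value also moved by over 1.5 times for Ccl7 (0.36), Cxcl10 (0.44), Cxcr3 (0.34), Ccr1 (-0.43) and Ccr2 (-0.66) without a change of sign, and the NanoTLZ value for Ccr1 (0.09) and Ccr2 (0.15). Genes with few counts, such as Ccl22, Ccl17, Ccl20 and Ccr10, have the widest counting error.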

Other observations

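Further tested genes of the system were described by their ranges. Of the neutrophil-attracting ligands, Cxcl1 ran from 11.3 to 51.9 CPM in saline and from 30.2 to 110.4 CPM in treated tumors, and Cxcl2 from 0.275 to 10.6 CPM and from 3.33 to 41.0 CPM, each with its highest value in i.v. TLZ 1. The myeloid CC ligands Ccl3 and Ccl4 ran from 0.321 to 9.74 CPM and from 0.0917 to 2.76 CPM over all tumors, both lowest in saline 3 and highest in i.v. TLZ 1. Ccl12, a further Ccr2 ligand, measured 1.60, 18.3 and 4.63 CPM in saline and 11.0, 15.2 and 16.7 CPM with NanoTLZ. Cxcr6, the receptor of Cxcl16 on T cells, measured 0.858, 2.34 and 0.505 CPM in saline, 3.05, 0.328 and 1.84 CPM with i.v. TLZ and 2.21, 2.51 and 3.73 CPM with NanoTLZ, with the groups overlapping. Ccl27a was highest in i.v. TLZ 2 at 25.1 CPM and lay between 1.65 and 10.04 CPM elsewhere. Ccl11, Cxcl17, Ccl21a, Ccr3, Cxcr1, Cxcr5 and Xcr1 had no unadjusted p under 0.05 by edgeR in any comparison over all 9 tumors.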
